A study of Mus musculus with 3 samples.

Results

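Absorptive Aqp1-high gallbladder epithelium is described here from 3649 cell barcodes, out of 9211 epithelial barcodes and 27700 barcodes in all, in a droplet-based 3′ single-cell RNA sequencing study of mouse gallbladder. The cells were chosen by their measured expression. A barcode had to hold at least 300 genes and 3000 unique molecular identifiers (UMIs, the tags that count captured RNA molecules), with at most 20% of UMIs from mitochondrial genes. Epithelial barcodes had a summed level of Epcam, Krt8, Krt18 and Krt19 of 4000 CPM (UMIs of a gene per 1000000 UMIs of the barcode) or more, no UMI of the leukocyte gene Ptprc, and less than 2000 CPM of Col1a2 plus Col3a1. Among these, Aqp1-high cells had Aqp1 at 300 CPM or more, Lcn2 below 300 CPM, and the interferon genes Isg15, Ifit1 and Ifit3 below 300 CPM in sum. Since the cells were cut on these values, and the other genes come from the same cells, every difference from other epithelium below is a description and carries no test.

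The study gave male C57BL/6 mice nanoplastics, plastic particles below the micrometre scale, by oral gavage. Its 3 groups were exposed for 3 weeks, exposed for 6 weeks, and control mice given the vehicle for 6 weeks. Each group was 1 library of 10 pooled gallbladders dissociated with trypsin, so individual mice cannot be told apart and no group had a replicate. In the joined matrix a barcode carries a library number, 1, 2 or 3, and the sources used here do not say which group each number is. Exposed and control gallbladders were therefore not compared, and all values are given by library number. The libraries are not replicates of a condition.

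The gallbladder concentrates bile by absorbing salt and water across a single-layered columnar epithelium. In absorptive epithelia, sodium enters at the apical side in exchange for protons, chloride enters in exchange for bicarbonate, the basolateral sodium pump carries sodium onward, and water follows through membranes that hold aquaporins. Carbonic anhydrases supply the protons and bicarbonate for these exchanges. The same epithelium meets microbes and bile acids at its surface and can secrete mucins, trefoil peptides and antimicrobial proteins.

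The 3 libraries held 5643, 11827 and 10230 barcodes, of which 3299, 8851 and 4091 passed the filters on genes, UMIs and mitochondrial share. Aqp1-high cells had a median of 29332, 12792 and 15173 UMIs in libraries 1, 2 and 3, and 5165, 3448 and 4267 genes. Between 15 and 22 barcode sequences were shared by any 2 libraries, and 1 was shared by Aqp1-high cells of libraries 2 and 3. A doublet score above 0.25 marked 3.94% of scored barcodes and 2.44% of Aqp1-high cells (89 cells). These were kept, and their removal is among the alternatives. Levels below are CPM of the UMIs summed over a class in a library, with exact Poisson 95% intervals where given, which cover counting error only.

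Aqp1-high cells made up 29.8% of epithelial barcodes in library 1 (439 of 1475, exact binomial 95% interval 27.4 to 32.2%), 38.3% in library 2 (2511 of 6551, 37.2 to 39.5%) and 59.0% in library 3 (699 of 1185, 56.1 to 61.8%). These are values of 3 single libraries, and cells are not replicates. Over all libraries the share was 39.6%, or 36.8% when barcodes were thinned to 3000 UMIs and needed an Aqp1 UMI and no Lcn2 UMI. The median depth of epithelial barcodes was 27480, 12581 and 13895 UMIs in libraries 1, 2 and 3, and its part in the shares was not tested. A further 282 barcodes of library 2 met every other limit but carried the interferon genes above theirs, against 12 in library 1 and 7 in library 3. Lcn2-high cells, with Lcn2 at or above 300 CPM and Aqp1 below it, numbered 602, 2167 and 237 in the 3 libraries. Intermediate cells, with both genes below 300 CPM, numbered 402, 856 and 229. Barcodes at or above both limits were rare, with 11, 172 and 10.

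Aqp1 and Lcn2 were seldom both at 300 CPM or more in a barcode. Of epithelial barcodes with Aqp1 at 300 CPM or more, 5.28% also had Lcn2 at 300 CPM or more, against 66.4% of the other epithelial barcodes. The shares were 2.59% against 59.8% in library 1, 6.62% against 70.3% in library 2 and 1.40% against 51.0% in library 3. With every barcode thinned to 3000 UMIs and a single UMI taken as presence, they were 16.8% against 68.8% over all libraries. Of the 193 barcodes at or above both limits, 58 (30.1%) had a doublet score above 0.25, and their median depth was 23191 UMIs against 13842 in Aqp1-high cells. The part of joined cells in this class was not tested further.

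**Figure D1:**
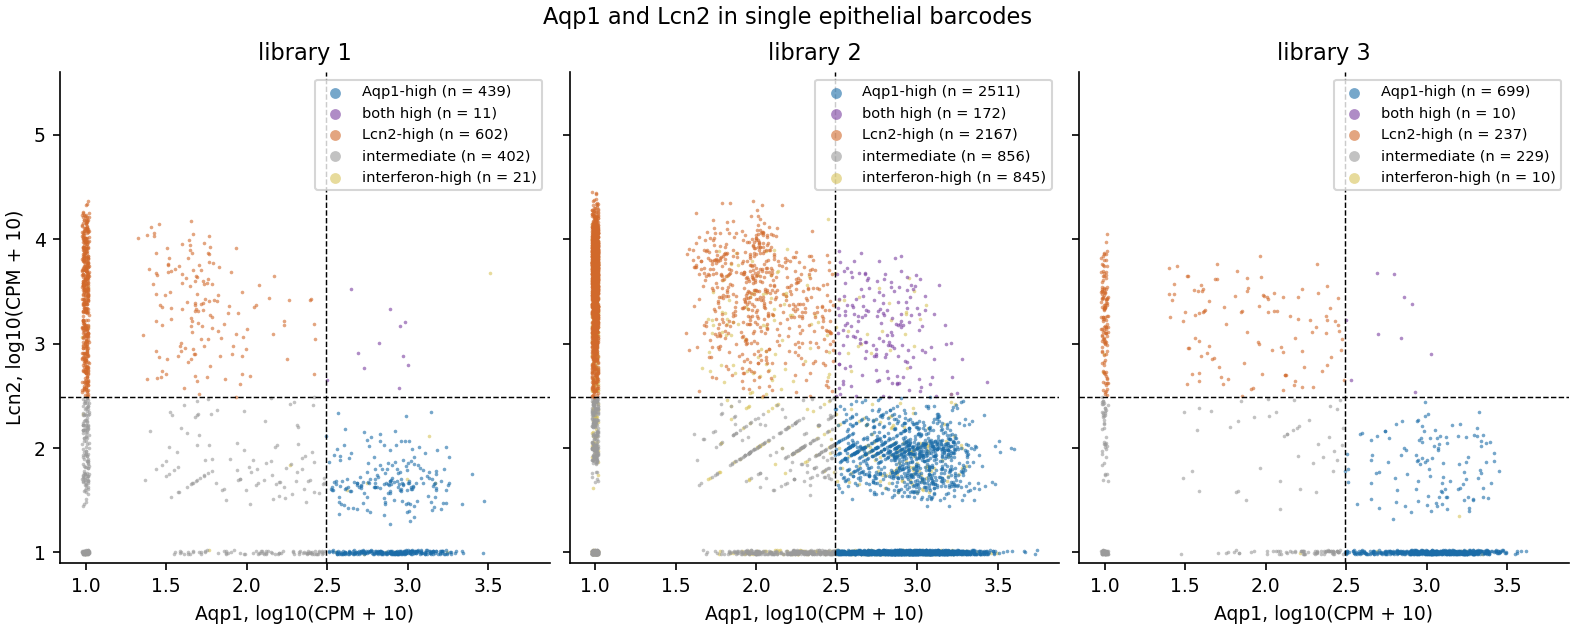
Aqp1 (x axis) and Lcn2 (y axis) in each epithelial barcode of libraries 1, 2 and 3, as log10 of CPM plus 10. Dashed lines mark 300 CPM and colours mark the classes, and barcodes with no UMI of a gene are spread by a small random offset at the axis. The Aqp1-high cells (blue) fill the lower right field, and 65.3% of them had no Lcn2 UMI.

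Aqp1 ran continuously across its limit. Within Aqp1-high cells the median Aqp1 level per barcode was 788, 879 and 1140 CPM in libraries 1, 2 and 3, and the highest reached 2981, 5519 and 4099 CPM. Just inside the limit were 301 cells with Aqp1 of 300 to 400 CPM, and just outside it 248 barcodes with 200 to 300 CPM that met the other limits. The cells just inside had 152, 59.8 and 83.9 CPM of Slc9a3 in libraries 1, 2 and 3, and those just outside had 92.2, 52.7 and 74.4 CPM. Ctrb1 was 1341, 1297 and 581 CPM just inside the limit and 1362, 1111 and 505 CPM just outside it. Slc9a3 was higher just inside the limit in all 3 libraries and Ctrb1 in libraries 2 and 3, by less than 2-fold in each case. Only 5 Aqp1-high cells passed on a single Aqp1 UMI, and 80.7% held 10000 UMIs or more.

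The label goes with 5 marker genes, of which Aqp1 is in the rule and the other 4 are not. All 5 were chosen with earlier results of these data known, so their levels describe the cells and do not test the label. Aqp1, the archetypal water channel, stands on chromosome 6 at chr6:55336432-55348555, plus strand (GENCODE M21 on GRCm38, as are all gene positions here). Slc9a3, the apical sodium-proton exchanger NHE3, is at chr13:74121457-74169442, plus strand. Muc3, a membrane-bound mucin, is at chr5:137134922-137149322, minus strand, and Slc26a3, the apical chloride-bicarbonate exchanger, at chr12:31390871-31473917, plus strand. Ctrb1, the pancreatic protease precursor chymotrypsinogen B, is at chr8:111686519-111691010, minus strand. All 5 are protein-coding genes.

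Promoters of 3 of these genes show what sequence lies at the start of the genes that set these cells apart. They are printed because Aqp1 defines the cells and the other 2 windows hold a run of letters picked after the windows had been read. The sequences are from RefSeq on GRCm38.p6 and run from 250 bases before to 50 bases after the RefSeq start, on the gene's own strand. Aqp1 is at chr6:55336049-55336348, plus strand, Slc26a3 at chr12:31437969-31438268, plus strand, and Ctrb1 at chr8:111690961-111691260, minus strand. RefSeq and GENCODE place some starts apart. The RefSeq start of Slc26a3 lies inside the GENCODE span given above, the Aqp1 window ends before the GENCODE start, and the Muc3 window that was searched, chr5:137165997-137166296, minus strand, lies beyond the GENCODE end of that gene. Capitals mark the letters GTTAAT, searched on either strand.
Aqp1: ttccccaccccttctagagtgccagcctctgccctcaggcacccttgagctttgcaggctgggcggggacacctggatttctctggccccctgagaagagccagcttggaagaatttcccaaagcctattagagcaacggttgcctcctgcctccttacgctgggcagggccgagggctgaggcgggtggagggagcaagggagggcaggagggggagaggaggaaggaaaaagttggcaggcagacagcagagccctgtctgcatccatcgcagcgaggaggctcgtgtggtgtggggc
Slc26a3: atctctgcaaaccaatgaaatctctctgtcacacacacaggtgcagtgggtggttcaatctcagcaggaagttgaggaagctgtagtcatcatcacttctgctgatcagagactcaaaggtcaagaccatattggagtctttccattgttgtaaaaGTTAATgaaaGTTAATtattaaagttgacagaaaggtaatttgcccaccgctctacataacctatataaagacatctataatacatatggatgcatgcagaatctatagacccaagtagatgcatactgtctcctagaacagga
Ctrb1: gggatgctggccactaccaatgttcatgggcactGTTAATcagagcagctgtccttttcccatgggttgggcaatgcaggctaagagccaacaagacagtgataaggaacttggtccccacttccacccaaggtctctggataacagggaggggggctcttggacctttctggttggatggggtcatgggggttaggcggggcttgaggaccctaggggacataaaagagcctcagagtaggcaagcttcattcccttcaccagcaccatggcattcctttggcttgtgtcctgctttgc

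Both strands of the 5 marker promoters were also searched for TGTTTAC, a forkhead factor motif. The AP-1 motif TGANTCA was searched likewise, as was AGATAA, which GATA factors bind. The run of letters in capitals above was added after the letters of these promoters had been seen. The forkhead, AP-1 and GATA motifs were in none of the 5 windows. The Slc26a3 window held the added run 2 times on the strand shown and the Ctrb1 window held it 1 time. The windows of Aqp1, Slc9a3 and Muc3 did not hold it. As the run was picked from these letters, its presence here follows from that choice. Of 32851 RefSeq promoters of the same length, 7.10% held that run, 3.65% the forkhead motif, 7.81% the AP-1 motif and 11.2% the GATA motif. These are matches of letters only, in windows set by the RefSeq starts.

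Aqp1 itself was 883 CPM in Aqp1-high cells of library 1 (868 to 898), 983 CPM in library 2 (973 to 993) and 1253 CPM in library 3 (1235 to 1271). Intermediate cells had 60.7, 99.8 and 77.5 CPM and Lcn2-high cells 13.9, 30.6 and 38.5 CPM, as their limits require. The 4 genes outside the rule followed the same order of classes in every library. Slc9a3 was 203, 99.4 and 171 CPM in Aqp1-high cells, against 24.4, 24.0 and 27.4 CPM in intermediate and 7.23, 5.14 and 9.56 CPM in Lcn2-high cells. Muc3 was 231, 203 and 691 CPM in Aqp1-high cells, against 41.6, 66.1 and 133 CPM in intermediate and 4.29, 9.80 and 19.1 CPM in Lcn2-high cells. For Muc3, library 3 also stood above the other 2 libraries within each class.

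Slc26a3 was 147, 158 and 407 CPM in Aqp1-high cells, 58.1, 103 and 173 CPM in intermediate cells and 8.06, 11.02 and 19.5 CPM in Lcn2-high cells. Ctrb1 was 2204, 1842 and 1267 CPM in Aqp1-high cells, 363, 587 and 168 CPM in intermediate cells and 28.6, 62.7 and 26.3 CPM in Lcn2-high cells. No library of Aqp1-high cells overlapped any library of either other class for Slc9a3, Muc3 or Ctrb1. Here and below, the share of all genes without such overlap was not counted. Slc9a3, Muc3 and Slc26a3 stayed below 20 CPM in every library of Lcn2-high cells. For Slc26a3 the lowest Aqp1-high level, in library 1, lay below the intermediate level of library 3, while within each library Aqp1-high cells were higher. The 4 marker genes that the rule left free were thus highest in Aqp1-high cells of each library, and absorption itself was not measured.

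**Figure D2:**
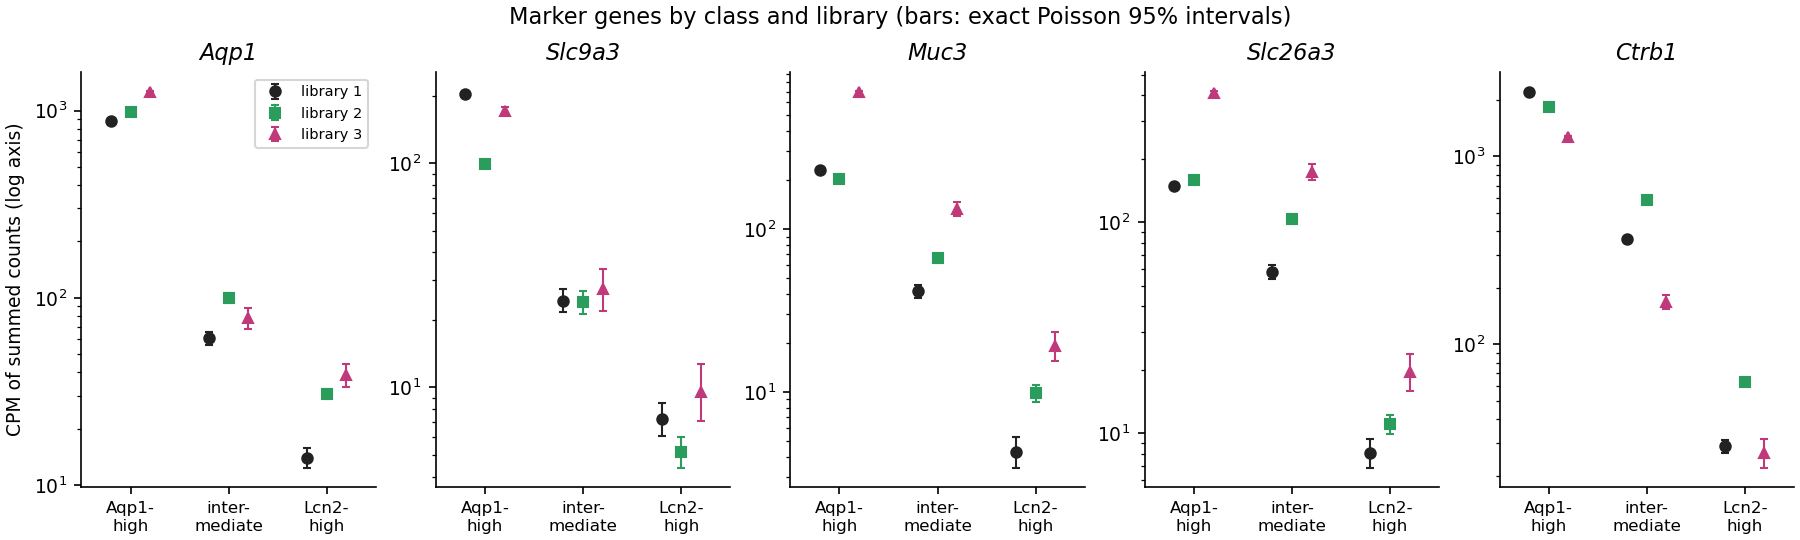
Levels of the 5 marker genes in Aqp1-high, intermediate and Lcn2-high epithelium of libraries 1, 2 and 3. Points are CPM of summed counts on a log axis with exact Poisson 95% intervals, and in every library the order from high to low was Aqp1-high, intermediate, Lcn2-high.

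Single-cell presence was set against barcodes that should lack these genes. At 3000 UMIs per barcode, Aqp1 was found in 92.1% of Aqp1-high cells, Slc9a3 in 27.2%, Muc3 in 46.4%, Slc26a3 in 35.5% and Ctrb1 in 84.1%. In those barcodes, with Ptprc and low keratins, the shares were 9.82%, 1.80%, 3.65%, 2.42% and 6.89%. Without thinning, Aqp1 was found in 100% and Slc9a3 in 68.1% of Aqp1-high cells, at a median of 13842 UMIs, and in 16.5% and 3.65% of the Ptprc-positive barcodes, at a median of 5602 UMIs. Library 3 had the highest background, with Aqp1 in 20.7% of its thinned Ptprc-positive barcodes, against 3.49% and 8.32% in libraries 1 and 2. The thinned share of Lcn2-high cells with Aqp1 was 4.32%, 7.71% and 14.3% in libraries 1, 2 and 3, above the Ptprc-positive share in library 1 and below it in libraries 2 and 3. For Slc9a3 and Muc3 the Lcn2-high shares lay above in libraries 1 and 2 and below in library 3. Intermediate cells lay above the Ptprc-positive share of their own library for all 5 genes, except for Aqp1 in library 3, with 19.7% against 20.7%.

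Across all genes, 5704 were compared between Aqp1-high and Lcn2-high cells, each reaching 20 CPM in every library of at least 1 of the classes. The 12 genes of the rule were left out. A gene that reached 20 CPM in only 1 of the classes entered through the class where it is high and had to differ. Ratios were taken after adding 1 CPM, and a gene was called when it was at least 2-fold higher, or lower, in all 3 libraries. By that rule 142 genes (2.49%) were higher and 217 genes (3.80%) were lower in Aqp1-high cells. These shares are the background for the counts in gene lists below, and no list was tested against them. Against intermediate cells 5444 genes were compared, and 32 (0.588%) were higher and 83 (1.52%) lower. All 32 were also higher than in Lcn2-high cells, and 70 of the 83 were also lower. Intermediate cells lay between the other 2 classes in all 3 libraries for 135 of the 142 genes (95.1%) and 190 of the 217 genes (87.6%). These genes were picked because those 2 classes differ, and intermediate cells were cut by the same limits. The order follows in part from that choice, and the share over all compared genes was not counted. Over all genes compared, the median log2 ratio to Lcn2-high cells was -0.11, -0.09 and 0.01 in libraries 1, 2 and 3. The counts against intermediate cells depended on the thinning and on library 2. With the classes set by presence of an Aqp1 or Lcn2 UMI after thinning to 3000 UMIs they were 10 higher and 48 lower, and without library 2 the higher count was 69.

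Among water channels and carbonic anhydrases 6 genes could be compared with Lcn2-high cells, and 4 were called higher and 1 lower. Over all genes compared 2.49% were higher and 3.80% lower. Of the called genes, Aqp8, Aqp5, Car4 and Car12 reached 20 CPM in every library of only 1 of these classes, the one where each is high. Their calls thus follow in part from that minimum. Aqp8, a water channel that also passes ammonia and peroxide, had 20.2, 24.9 and 25.9 CPM in Aqp1-high cells, against 0.0517, 0.420 and 0.598 CPM in Lcn2-high cells. Aqp5 had 73.0, 71.4 and 34.4 CPM against 8.11, 6.08 and 9.76 CPM. The membrane-anchored Car4 had 62.3, 63.3 and 117 CPM against 12.8, 4.40 and 4.18 CPM, and the transmembrane Car9 had 310, 267 and 548 CPM against 81.1, 69.8 and 91.9 CPM. For these 4 genes no library of Aqp1-high cells overlapped a library of Lcn2-high cells. For Aqp8, Aqp5 and Car4 that too follows in part from the minimum. Car12 went the other way, with 4.12, 4.32 and 8.02 CPM against 20.1, 20.6 and 23.9 CPM. Cytosolic Car2 was below 2-fold, with 1037, 1074 and 1114 CPM in Aqp1-high cells and 1025, 866 and 707 CPM in Lcn2-high cells.

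The apical exchanger genes Slc9a3 and Slc26a3 differed between the classes, and the pump subunit gene Atp1b1 did not reach 2-fold. In the list of sodium uptake and pump genes 1 of 9 compared genes, Slc9a3, was called higher than in Lcn2-high cells and 0 lower, against 2.49% and 3.80% of all genes compared. The median log2 ratio of this list was 0.02, 0.14 and 0.39 in libraries 1, 2 and 3. Atp1b1, the beta subunit of the sodium pump, had 1206, 1229 and 1757 CPM in Aqp1-high cells and 1499, 1521 and 1961 CPM in Lcn2-high cells. Of the epithelial sodium channel subunits, Scnn1a had 17.4, 16.5 and 30.2 CPM in Aqp1-high cells, while Scnn1b and Scnn1g had 0 UMIs in these 3649 cells, which allows up to 0.0427 CPM. Slc9a3r1, the scaffold that tethers NHE3 to ezrin, had 147, 148 and 134 CPM against 88.5, 97.3 and 101 CPM in Lcn2-high cells, under 2-fold.

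Among 10 compared chloride and bicarbonate genes 2 were higher and 1 lower, against 2.49% and 3.80% of all genes compared. Slc4a4, the basolateral sodium-bicarbonate cotransporter, had 1545, 1574 and 3122 CPM in Aqp1-high cells, against 647, 758 and 1237 CPM in Lcn2-high cells, so that even the lowest Aqp1-high library lay above the highest Lcn2-high library. Slc12a2, the sodium-potassium-chloride cotransporter that loads chloride for secretion, had 26.3, 30.0 and 28.9 CPM in Aqp1-high cells, against 248, 206 and 189 CPM in Lcn2-high cells. The secretory chloride channel gene Cftr had 4.12, 4.82 and 8.62 CPM against 17.6, 18.4 and 20.3 CPM, and was not compared or called because Lcn2-high cells did not reach 20 CPM in every library. Ano1, a calcium-activated chloride channel, had 133, 120 and 174 CPM against 162, 158 and 183 CPM, below 2-fold.

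Few bile acid genes were abundant enough to compare. Slc10a2, which takes up bile acids with sodium at the apical membrane, had 147, 153 and 205 CPM in Aqp1-high cells and 218, 230 and 226 CPM in Lcn2-high cells. Of 4 genes of that list that could be compared, Slco2a1, a prostaglandin transporter, was higher, with 201, 206 and 265 CPM against 52.7, 80.4 and 75.5 CPM. Abcc4, an organic anion efflux pump, was lower, with 5.41, 8.06 and 14.2 CPM against 21.1, 27.3 and 31.5 CPM. The bile acid receptor gene Nr1h4 had 13.9, 14.5 and 21.0 CPM in Aqp1-high cells and 13.9, 16.0 and 21.1 CPM in Lcn2-high cells. The basolateral exporter subunits Slc51a and Slc51b stayed below 5 CPM in every library of Aqp1-high cells.

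**Figure D3:**
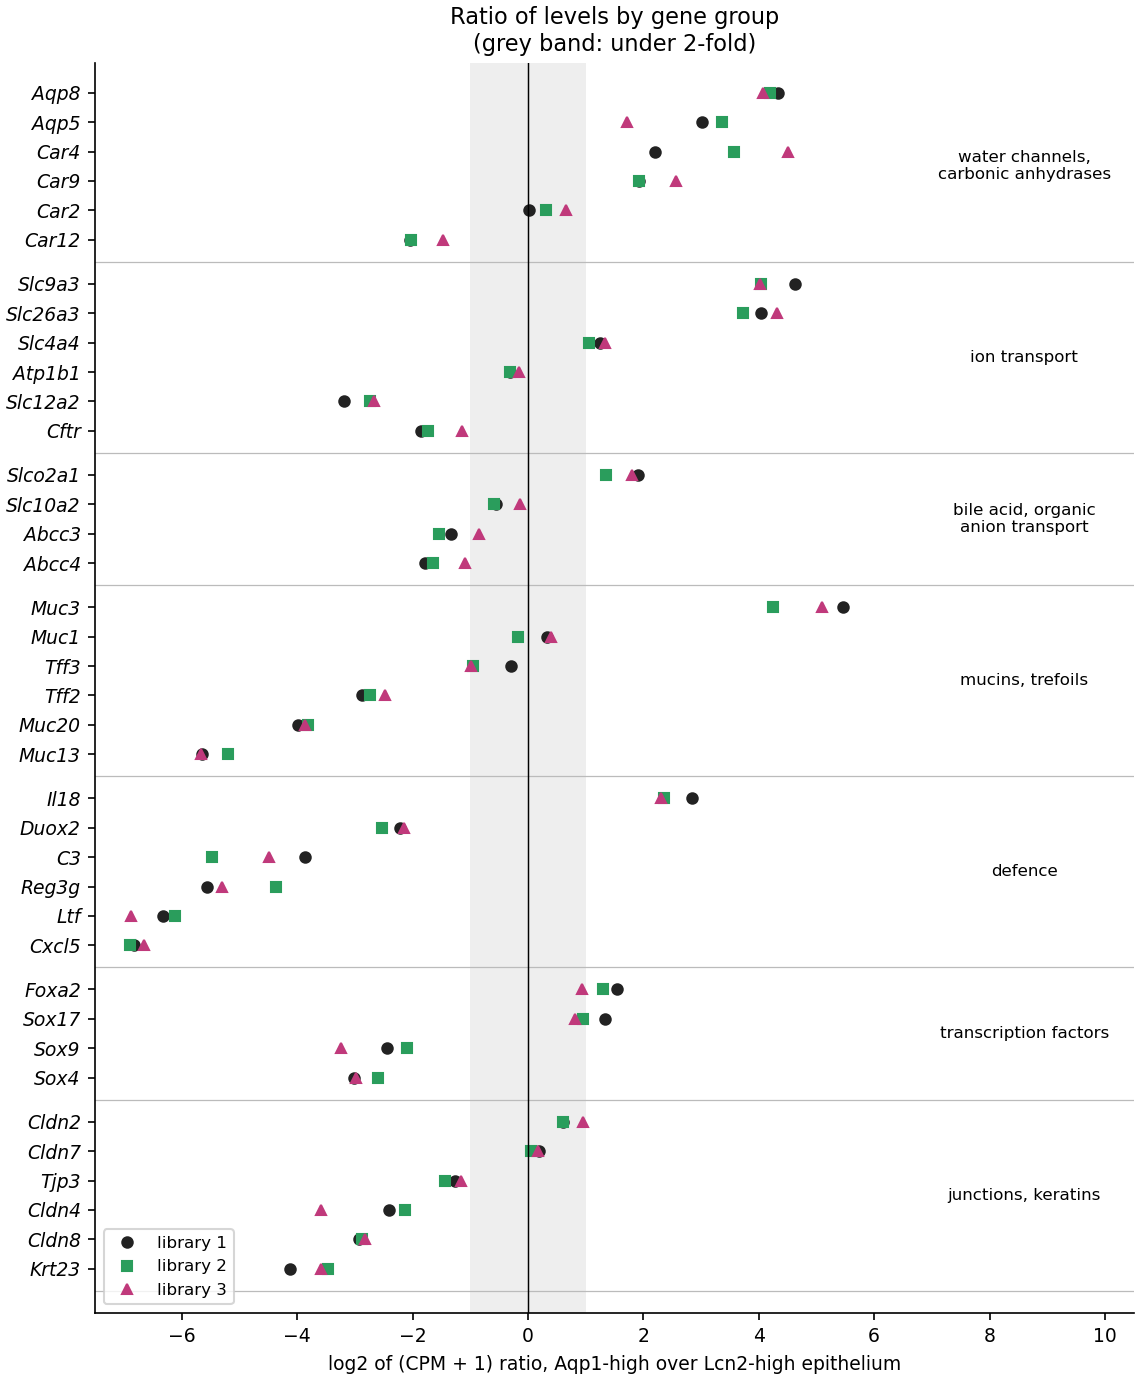
Log2 ratio of levels, with 1 CPM added, in Aqp1-high over Lcn2-high epithelium for selected genes of the lists, by library. Genes are grouped by role, and points outside the grey band differ by more than 2-fold. Slc9a3, Slc26a3, Aqp8, Car4 and Muc3 lie to the right in all 3 libraries, and Slc12a2, Tff2, Muc13, Ltf, Cxcl5, Sox9 and Cldn4 to the left.

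Surface mucins and secreted peptides differed in kind. Of 7 compared mucin and trefoil genes Muc3 was the gene called higher, and Muc13, Muc20 and Tff2 were called lower. Over all genes compared 2.49% were higher and 3.80% lower. Muc3 and Muc13 reached 20 CPM in every library of only 1 of the classes, so their calls follow in part from that minimum. Muc13, a membrane mucin, had 0.708, 1.73 and 0.534 CPM in Aqp1-high cells, against 84.6, 99.1 and 77.3 CPM in Lcn2-high cells. The mucosal peptide gene Tff2 had 188, 309 and 284 CPM against 1399, 2062 and 1595 CPM. Muc1 was below 2-fold, with 732, 723 and 886 CPM against 581, 813 and 671 CPM. The gel-forming mucin genes Muc2, Muc5ac, Muc5b and Muc6 were below 1 CPM in Aqp1-high cells of every library. Muc3a, listed beside Muc3 on chromosome 5, followed it with 67.5, 63.4 and 144 CPM against 2.48, 4.66 and 8.37 CPM. How alike the sequences of Muc3 and Muc3a are was not checked. Any reads that both genes share may be split between them, so each level is uncertain.

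Ctrb1 had few companions among pancreatic genes. Of 21 pancreas-type genes in the matrix, 17 were below 1 CPM in Aqp1-high cells of every library, and 9 of these had 0 UMIs. Reg1, a secreted lectin-like peptide first known from pancreas, was the other gene called higher, with 1316, 964 and 971 CPM in Aqp1-high cells, against 289, 98.2 and 108 CPM in Lcn2-high cells. Reg1 was 897, 872 and 670 CPM in intermediate cells and was not called against them. Cela1, an elastase-family gene, had 48.2, 57.6 and 53.6 CPM in Aqp1-high cells and 45.5, 52.3 and 55.8 CPM in Lcn2-high cells.

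Most compared defence genes were lower. Of 13 compared genes 8 were lower and 1 was higher than in Lcn2-high cells, against 3.80% and 2.49% of all genes compared. The median log2 ratio over the list was -2.48, -3.66 and -2.32. Cxcl5, Ltf and Reg3g were below 20 CPM in every library of Aqp1-high cells and entered through Lcn2-high cells. Their calls and the list median thus follow in part from that minimum. Lcn2 is in the rule, so genes that go with it are bound to the choice of cells. Cxcl5, a neutrophil-attracting chemokine, had 7.41, 8.14 and 1.67 CPM in Aqp1-high cells, against 950, 1084 and 270 CPM in Lcn2-high cells. Ltf, the iron-binding lactoferrin, had 13.1, 16.9 and 9.08 CPM against 1132, 1247 and 1191 CPM. The antibacterial lectin Reg3g had 5.28, 8.06 and 4.48 CPM against 295, 185 and 215 CPM. The smallest of these 9 ratios was 20.6-fold, for Reg3g in library 2. The oxidase Duox2 had 101, 68.9 and 139 CPM against 477, 401 and 620 CPM, and its maturation factor Duoxa2 had 159, 142 and 80.0 CPM against 548, 550 and 403 CPM.

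Il18 ran against the rest of that list. This inflammasome-processed cytokine had 141, 130 and 121 CPM in Aqp1-high cells, against 18.9, 24.7 and 23.5 CPM in Lcn2-high cells. Nlrp6, an inflammasome sensor of mucosal epithelium, had 106, 81.5 and 110 CPM against 11.1, 11.7 and 15.9 CPM. Pigr, which carries IgA across epithelium, had 1344, 965 and 1243 CPM against 2580, 2147 and 2015 CPM. Of 5 compared antigen presentation genes 0 were called in either direction, and likewise 0 of 5 interferon response genes, whose range the rule limits through Isg15, Ifit1 and Ifit3. With 2.49% of all compared genes higher and 3.80% lower, few or none would be called in lists this short.

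Of 15 compared junction genes 3 were lower, the claudins Cldn4 and Cldn8 and the scaffold Tjp3, and 0 higher. Cldn4 had 174, 160 and 41.8 CPM in Aqp1-high cells, against 932, 707 and 514 CPM in Lcn2-high cells, and Cldn8 had 6.83, 6.38 and 9.89 CPM against 58.9, 53.0 and 76.5 CPM. Tjp3 had 30.4, 27.4 and 34.8 CPM against 74.1, 75.7 and 78.9 CPM. Cldn3 and Cldn7 were not called. Cldn2, which forms a cation- and water-permeable pore, had 492, 432 and 688 CPM against 323, 283 and 356 CPM, higher in each library but under 2-fold. Among keratins outside the rule Krt23 was lower, with 32.7, 44.3 and 13.8 CPM against 585, 498 and 176 CPM. Brush border genes differed in 1 of 7 compared genes, Mme, a surface peptidase, which had 0.258, 0.653 and 0.868 CPM against 28.6, 33.9 and 38.3 CPM. As 3.80% of all compared genes were lower, 1 call does not set a list this short apart.

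Of 14 compared transcription factor genes of the biliary tract, Sox9 and Sox4 were lower and 0 were called higher, against 3.80% and 2.49% of all genes compared. Sox9, a duct progenitor factor, had 51.8, 46.0 and 35.1 CPM in Aqp1-high cells, against 286, 200 and 340 CPM in Lcn2-high cells. Sox4 had 32.4, 28.9 and 15.9 CPM against 268, 180 and 132 CPM. Sox17, required in mice to form the gallbladder, had 165, 143 and 139 CPM against 64.8, 73.1 and 78.9 CPM, 2.52-fold, 1.95-fold and 1.75-fold. Foxa2 had 152, 111 and 152 CPM against 51.3, 44.5 and 79.3 CPM, 2.93-fold, 2.47-fold and 1.91-fold. Both lay above every Lcn2-high library and missed the 2-fold rule in at least 1 library.

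Metabolic genes gave scattered differences. The metallothionein Mt1 had 5199, 4904 and 4842 CPM in Aqp1-high cells, against 2057, 2390 and 1674 CPM in Lcn2-high cells, the 1 gene called higher of 7 compared in its list. Slc39a4, a zinc importer, was lower, with 96.3, 98.4 and 120 CPM against 301, 314 and 343 CPM. Of 14 compared xenobiotic genes Aldh1a1 and Cyp2f2 were higher and 0 lower. Aldh1a1, a retinaldehyde dehydrogenase, had 118, 129 and 393 CPM against 27.9, 35.6 and 72.1 CPM, and reads shared with its paralog Aldh1a7 may be split. Of 11 compared lipid genes 1 was higher and 1 lower. The lower gene, the fatty acid binder Fabp5, had 24.8, 21.5 and 15.03 CPM against 122, 124 and 67.3 CPM. For each of these lists the share over all genes compared was 2.49% higher and 3.80% lower.

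Outside the lists, the genes furthest above Lcn2-high cells included carriers and signals. Slc14a1, a urea transporter, had 95.6, 102 and 226 CPM in Aqp1-high cells, against 1.29, 4.49 and 7.97 CPM in Lcn2-high cells. The sulfotransferase Sult1a1 had 479, 585 and 686 CPM against 27.3, 52.1 and 64.4 CPM. Abcb1a, the P-glycoprotein efflux pump, had 166, 182 and 259 CPM against 15.03, 21.3 and 23.9 CPM. The smallest of these ratios was 8.18-fold, for Abcb1a in library 2. Shh, the secreted hedgehog ligand, had 172, 110 and 281 CPM against 6.61, 15.9 and 21.5 CPM. Also among the 15 highest were the serine protease gene Prss23, the Ras exchange factor Rasgrp3, the membrane skeleton gene Epb41l3, the aldehyde dehydrogenase Aldh1a7 and the cytochrome P450 gene Cyp2f2. Their ratios ran between 6.50-fold, for Cyp2f2 in library 3, and 15.4-fold, for Rasgrp3 in library 1.

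At the other end, Chil4, a chitinase-like secreted protein, had 128, 26.7 and 10.1 CPM in Aqp1-high cells, against 6238, 1196 and 1341 CPM in Lcn2-high cells. In library 1 a single cell held 1026 of the 1987 Chil4 UMIs, and without it the level was 62.1 CPM. The complement genes C3 and C4b, the interleukin 1 antagonist Il1rn, the surface protein Plet1 and the nucleoside carrier Slc28a3 were lower by 14.5-fold, for C3 in library 1, to 44.8-fold, for C3 in library 2. The ferroxidase ceruloplasmin Cp and the carboxylesterases Ces1f and Ces1g were also among the 15 lowest. Of the C3 UMIs in library 1, 10 cells held 81.1%. Gabrp, a subunit of a GABA-gated chloride channel, had 11.7, 17.9 and 25.2 CPM against 460, 487 and 709 CPM.

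Against intermediate cells the list of differences was shorter. Slc9a3, Muc3, Ctrb1, Car4, Aqp8, Cyp2f2, Nlrp6, Abcb1a, Aldh1a7 and Slc14a1 were among the 32 higher genes. Slc26a3, Car9, Slc4a4, Il18, Reg1, Mt1 and Shh were not called, since at least 1 library lay below 2-fold. Car4 had 62.3, 63.3 and 117 CPM in Aqp1-high cells, against 25.3, 18.7 and 24.3 CPM in intermediate cells. Lower than in intermediate cells were 4 of 7 compared mucin and trefoil genes, 5 of 10 defence genes, 2 of 15 junction genes and 2 of 14 transcription factor genes. The share over all genes compared with intermediate cells was 1.52%. Tff2 had 188, 309 and 284 CPM in Aqp1-high cells, against 1273, 1943 and 2487 CPM in intermediate cells, and Tff3 had 221, 198 and 273 CPM against 686, 1030 and 886 CPM. Tff3 was not called against Lcn2-high cells, at 273, 385 and 541 CPM.

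The intermediate class carried genes that Aqp1-high cells lacked. The level of Agr2, a gene of mucus-secreting cells, was 62.8, 7.53 and 376 CPM in intermediate cells of libraries 1, 2 and 3 and that of Muc6 was 21.5, 8.86 and 290 CPM. Aqp1-high cells had below 1 CPM of both in every library. The summed fibroblast markers were 105, 40.7 and 225 CPM in Aqp1-high cells and 151, 128 and 553 CPM in intermediate cells. The mesothelial genes Msln and Upk3b were lower in Aqp1-high than in intermediate cells in all 3 libraries. Of the 1487 intermediate cells 693 had no Aqp1 UMI. The part of such cells in the counts against the intermediate class was not tested.

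Markers of other cells were low in Aqp1-high cells. Summed over 12 genes, the immune list was 71.3, 98.4 and 55.5 CPM in Aqp1-high cells, against 18830, 20881 and 5853 CPM in Ptprc-positive barcodes. Endothelial markers summed to 15.4, 7.01 and 28.1 CPM and tuft cell markers to 3.54, 3.94 and 16.6 CPM. Smooth muscle markers summed to 127, 64.6 and 267 CPM, against 7923, 9688 and 8987 CPM in collagen-rich barcodes. The sum was 43.7, 77.1 and 129 CPM in Lcn2-high cells and 118, 149 and 302 CPM in intermediate cells. For Tagln, a gene of that list, 10 Aqp1-high cells held 89.2%, 70.5% and 65.4% of the UMIs in libraries 1, 2 and 3. The hepatocyte list came almost wholly from Ttr, at 696, 841 and 940 CPM, while Fgb had 0 UMIs and Alb stayed below 3 CPM. Ttr was at 649, 657 and 1034 CPM in Lcn2-high cells, below 2-fold apart in each library. Of the list of neuroendocrine and goblet cell genes, Fcgbp accounted for most of the summed 116, 121 and 153 CPM, and it was lower than in Lcn2-high cells. Red blood cell genes summed to 0.193, 0.477 and 142 CPM. In the cell cycle list 1 gene could be compared and was not called, and in the progenitor-type list 1 of 7, Sox9, was lower, against 3.80% of all genes compared.

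Immediate early genes behaved differently by library. Of 20 compared immediate early and heat shock genes 0 were called in either direction, against either class. Calls were rare in general, with 2.49% of all compared genes higher and 3.80% lower than in Lcn2-high cells. The median log2 ratio of the list to Lcn2-high cells was 1.09, 0.92 and 0.34 in libraries 1, 2 and 3, and to intermediate cells 0.63, 0.55 and -0.29. Fos had 4567, 3172 and 3026 CPM in Aqp1-high cells, against 1470, 1292 and 2514 CPM in Lcn2-high cells. Btg2 had 1896, 1506 and 1355 CPM against 377, 342 and 780 CPM. Both genes were above 2-fold in libraries 1 and 2 and below it in library 3. Genes of this kind are known to be induced when tissue is dissociated. Hes1, a Notch target, was higher in libraries 1 and 2 and lower in library 3, with 398, 323 and 348 CPM against 132, 126 and 442 CPM.

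Spread between Aqp1-high cells was measured by the Fano factor, the variance of a gene's count over its mean, on counts thinned to 3000 UMIs. Over 2518 genes the median was 1.05, 1.04 and 1.06 in libraries 1, 2 and 3, close to the value for counting noise alone. At 3000 UMIs a gene with few counts per cell lies near that value even where cells differ. The median therefore does not measure how alike the cells are. Ranked by their lowest library, the 10 genes with the highest Fano factor were Malat1, Reg1, mt-Co1, Gm42418, Fos, Tff3, Clu, Ly6d, Jun and mt-Atp6. The Fano factor of a gene that differs between cells rises with its level, so this ranking favours abundant genes. Reg1 had Fano factors of 13.0, 16.1 and 10.1, and Tff3 of 9.23, 5.86 and 5.47. Reg1 had a UMI in 326 of 439, 1559 of 2511 and 506 of 699 cells, and the 10 cells with the most Reg1 UMIs held 22.7%, 11.1% and 21.7% of them. For Tff3 the 10 cells with the most held 47.3% in library 1, 11.5% in library 2 and 22.2% in library 3. Among the markers, Ctrb1 had Fano factors of 6.21, 6.42 and 3.40, and Slc9a3 had 1.61, 1.21 and 1.35. Ctrb1 was far more abundant than Slc9a3, so these values do not show which of them varied more for its level.

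Some genes were graded along Aqp1 among Aqp1-high cells themselves. Cells were binned at Aqp1 of 300 to 600, 600 to 1200, and 1200 CPM or more, which gave 133, 223 and 83 cells in library 1, 647, 1167 and 697 in library 2, and 98, 276 and 325 in library 3. Car9 was 291, 304 and 355 CPM over the bins of library 1, 216, 268 and 308 CPM in library 2, and 433, 515 and 609 CPM in library 3. Slc9a3 was 167, 193 and 278 CPM over the bins of library 1, while library 2 had 61.3, 98.7 and 134 CPM and library 3 had 133, 167 and 184 CPM. Slc9a3, Muc3, Car9, Slc4a4 and Mt1 were in rising order in all 3 libraries. The marker Ctrb1 rose in libraries 1 and 2 and was 829, 1324.5 and 1323.4 CPM over the bins of library 3. Only a chosen set of genes was binned, and the share of all genes in a common order was not counted.

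Trefoil genes ran the other way. Tff2 was 346, 148 and 58.7 CPM over the bins of library 1, 509, 293 and 162 CPM in library 2, and 552, 336 and 167 CPM in library 3. Tff3 was 474, 141 and 50.1 CPM over the bins of library 1, while library 2 had 327, 186 and 106 CPM and library 3 had 599, 292 and 173 CPM. Cldn4 was also in falling order in all 3 libraries. Slc26a3 had no common order, at 131, 148 and 170 CPM in library 1 and 464, 423 and 378 CPM in library 3. Among cells with 10000 UMIs or more, the orders in the bins were as described except for Ctrb1 in library 3. There it was in rising order, at 869, 1369 and 1386 CPM. The bins share their cells' Aqp1 counts with the rule, and cells are not replicates, so no test was made.

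**Figure D4:**
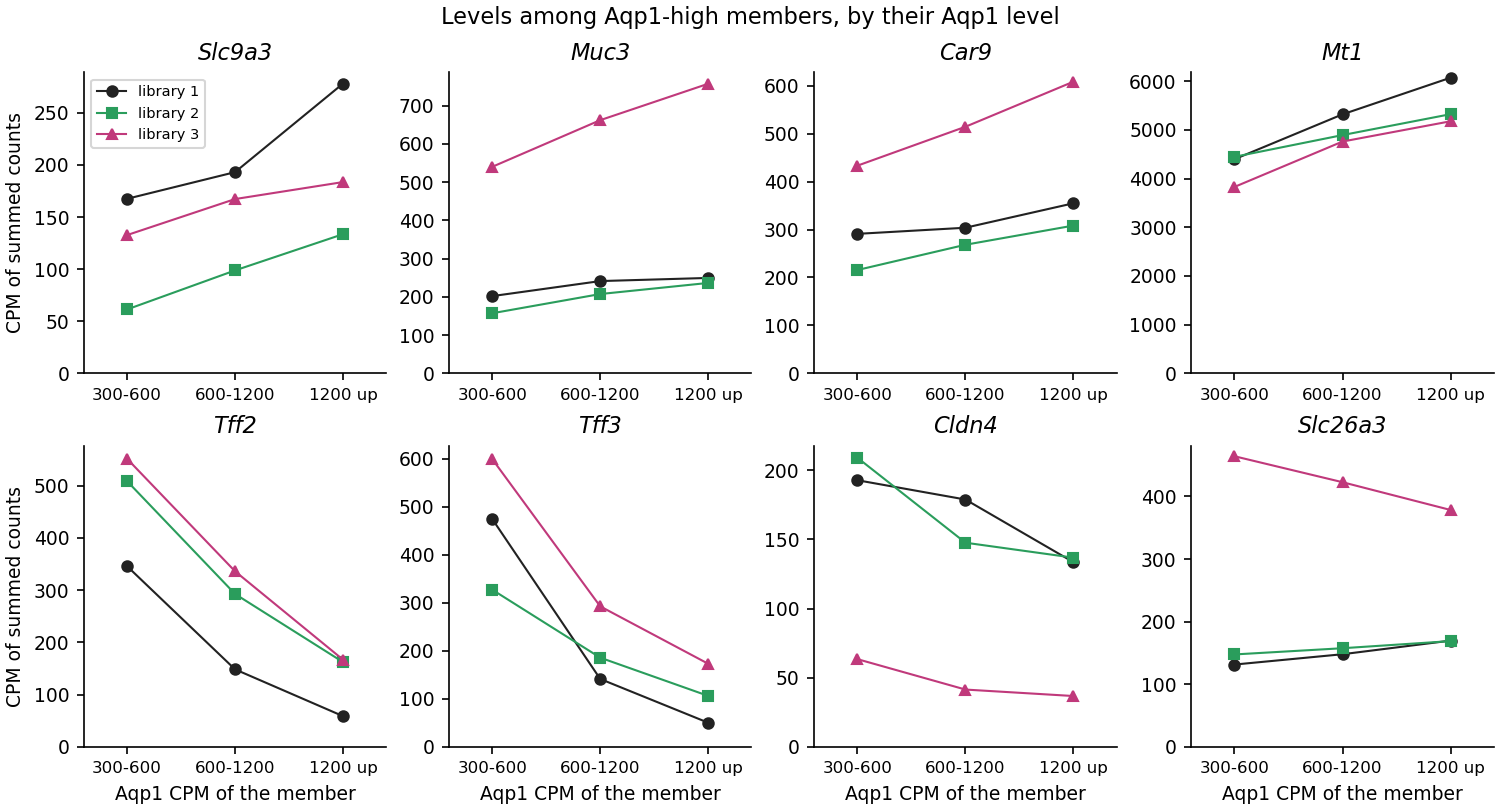
CPM of summed counts for 8 genes in Aqp1-high cells binned by their own Aqp1 level (x axis, CPM), with 1 line per library. Slc9a3, Muc3, Car9 and Mt1 are in rising order and Tff2, Tff3 and Cldn4 in falling order in all 3 libraries, while Slc26a3 is in rising order in libraries 1 and 2 and falling order in library 3.

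Library number went with large differences in some genes of Aqp1-high cells, and library cannot be told apart from group, pool or run. Angptl4, a lipoprotein lipase inhibitor, had 15.8, 12.9 and 96.0 CPM in libraries 1, 2 and 3, and 345 of 699 cells of library 3 held a UMI of it. Cpt1a, the gatekeeper of mitochondrial fatty acid import, had 120, 110 and 262 CPM. The heat shock gene Dnajb1 had 179, 171 and 633 CPM. Library 3 was the highest for all 3 of these genes, and Angptl4 and Dnajb1 were picked for standing highest there.

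Other genes were lowest in library 3. Gm42418, a locus that overlaps ribosomal RNA repeats, had 22587, 13800 and 2211 CPM over the 3 libraries. Nupr1, a stress-induced chromatin protein, had 128, 177 and 15.8 CPM, and Lgals3, galectin 3, had 1097, 1436 and 198 CPM. The stress gene Gadd45g was highest in library 1, with 491, 272 and 149 CPM. The ribosomal protein gene Rps15 was lowest in library 2, with 1114, 484 and 1268 CPM. The library that stood apart was the same in intermediate and in Lcn2-high cells for Angptl4, Cpt1a, Dnajb1, Gm42418, Nupr1, Lgals3 and Rps15. Gadd45g was the exception, with 153, 149 and 168 CPM in intermediate cells and 96.4, 80.1 and 130 CPM in Lcn2-high cells, highest in library 3.

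Some of the largest library differences sat in single barcodes. Ghrl, the ghrelin gene, had 0.129, 144 and 0.134 CPM in libraries 1, 2 and 3. A single barcode held 5682 of its 5713 UMIs in library 2, among 19571 UMIs of all genes and with 17 Aqp1 UMIs, and without it the level was 0.779 CPM. The antibody light chain gene Igkc had 229 CPM in library 2, of which a single barcode held 85.9%, and without it the level was 32.3 CPM. Hbb-bs, a globin gene, had 71.4 CPM in library 3, of which a single barcode held 97.6%, and without it the level was 1.74 CPM. These 3 barcodes met the rule, with 17, 23 and 9 Aqp1 UMIs, and also held most of the UMIs of a gene known from endocrine, plasma or red blood cells. How the RNAs came together was not tested.

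**Figure D5:**
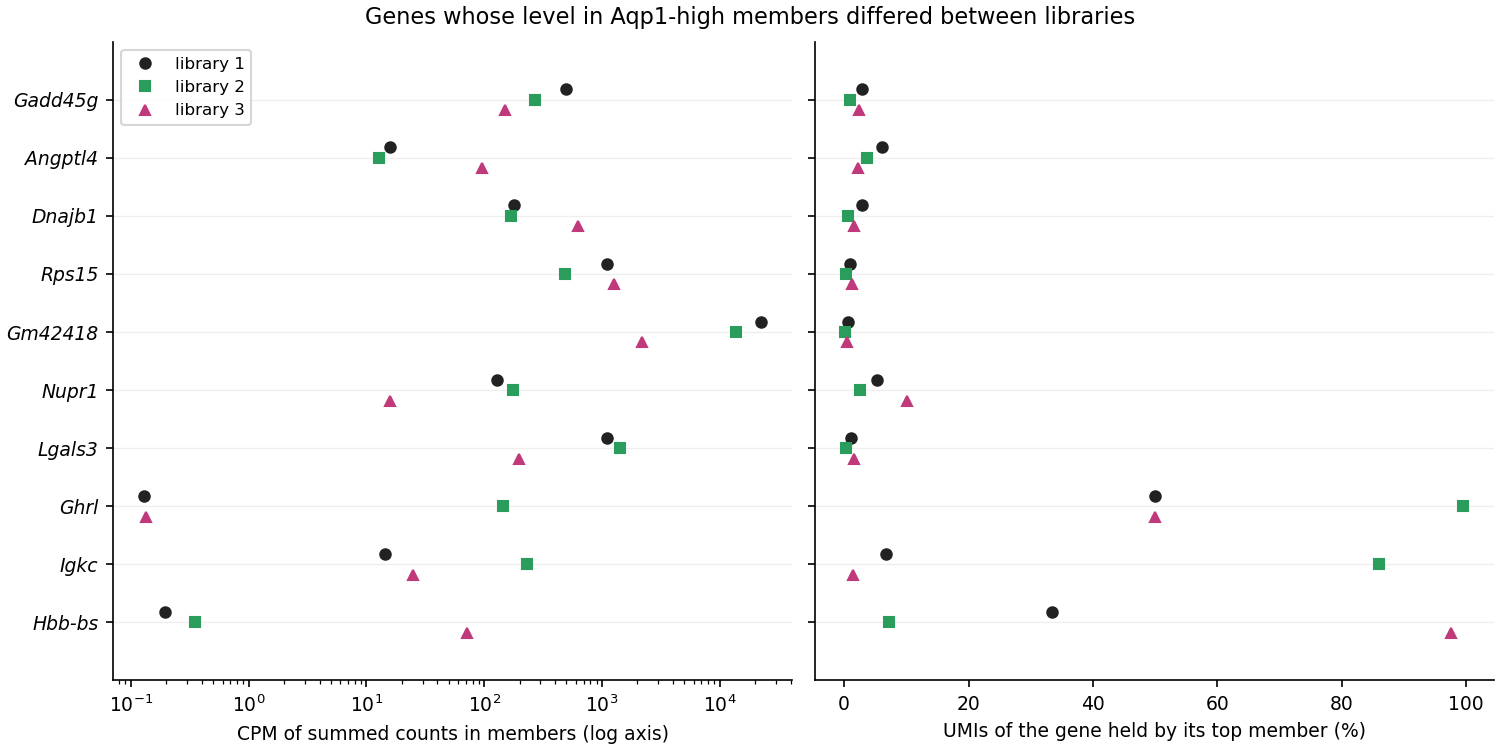
Left, CPM of summed counts in Aqp1-high cells of libraries 1, 2 and 3 on a log axis for genes that differed between libraries. Right, the percentage of each gene's UMIs held by the cell with the most, which is 99.5% for Ghrl in library 2, 85.9% for Igkc in library 2 and 97.6% for Hbb-bs in library 3. Ghrl had 2 UMIs in each of libraries 1 and 3, so its percentages there carry no weight.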

How the data were processed

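The deposited file is a joined matrix of raw UMI counts per gene and barcode, with 31053 genes and 27700 barcodes, that the authors made with Cell Ranger 6.1.1 on GRCm38 (mm10), per the submitters' processing notes. No other filter of barcodes is given in the sources used here. Matrix values are whole numbers and were used unscaled. The last part of a barcode gave its library number, which could not be mapped to a group, so no comparison between groups and no test was made. Barcodes were filtered and classed by the limits given above, counts were summed per class and library, and levels are CPM of those sums. Ratios were taken after adding 1 CPM. Doublets were scored with Scrublet in scanpy 1.11.5 (threshold 0.25, expected rate 6.0%) and kept. Thinning drew 3000 UMIs per barcode without replacement. The code was tested on simulated counts. Python 3.11.15, numpy 2.4.6, scipy 1.17.1 and pandas 2.3.3 were used.

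The cells, the 30 gene lists (374 genes, 1 of them not in the matrix) and the comparisons were chosen with earlier results of these data known. Named genes are the 5 markers, members of the lists with at least 10 CPM or at or near 0, the 15 highest and 15 lowest against Lcn2-high cells, the 10 highest and 10 lowest against intermediate cells, the 10 with the highest Fano factor, and the 5 highest and 5 lowest of each library. The single cells that held most of a gene's UMIs were looked for after the library differences had been seen. The alternatives tried were other limits on UMIs, mitochondrial share, Aqp1, Lcn2 and keratins, doublet removal, thinning, leaving out each library, other folds and level minima, the mean over barcodes, and centred ratios. Some listed genes, with the results that need them, are not reported here.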

Additional observations from a re-analysis of the deposited data

How the results depend on the processing

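Aqp1-high cells numbered 2944 to 3897 under the alternatives that kept all 3 libraries, and leaving out 1 library gave 1138 (without library 2) to 3210. Their share of epithelium, 39.6%, was 37.9% with a mitochondrial limit of 10%, 42.3% and 33.3% with Aqp1 limits of 200 and 500 CPM, 38.2% with an Lcn2 limit of 150 CPM, 36.8% with classes set after thinning, and 36.8 to 42.8% without 1 library. The 142 genes higher than in Lcn2-high cells became 287 and 66 with folds of 1.5 and 3, and 238 and 85 with level minima of 5 and 50 CPM. The 217 lower genes became 408, 119, 400 and 123 under the same 4 settings. Without 1 library these counts ran from 153 to 175 and from 236 to 298, since fewer libraries had to pass. The 32 genes higher than in intermediate cells became 95 and 10 with folds of 1.5 and 3, 55 and 18 with level minima of 5 and 50 CPM, 13 with an Aqp1 limit of 500 CPM, 10 with classes set after thinning, and 34 to 69 without 1 library, the highest without library 2. The 83 lower genes became 159, 38, 177 and 43 under the first 4 of these settings, 48 after thinning, and 94 to 121 without 1 library. Where not given by the setting itself, the cause was not tested. Log2 ratios of Slc9a3, Muc3, Slc26a3 and Ctrb1 to Lcn2-high cells, each the median of the libraries, ran from 3.81 to 6.17 over the 68 values from settings that can move them. The folds and level minima cannot. Of the gene counts, 64 of 84 gene counts were within 1.5 times of the main count. No paired analysis was possible because each group was 1 library and library numbers are not mapped to groups. The main limits are that cells of 1 library are not replicates, that the classes were cut from graded levels, and that 20.7% of thinned Ptprc-positive barcodes of library 3 held an Aqp1 UMI, from a source that was not tested. Intervals cover counting error only.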
